A study of Mus musculus with 13 samples.

Results

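Igf2bp2, which encodes an RNA-binding protein named for the Igf2 transcripts it binds, was examined together with 9 genes of the insulin-like growth factor (IGF) axis in the pancreas of reprogrammable mice. The 10 genes were Igf2bp2, Igf1, Igf1r, Ghr, Igfbp2, Igfbp3, Igfbp4, Igfbp5, Igfbp6 and Igfbp7, found by Entrez identifier among the 23366 genes of the deposited matrix, in which all 10 were present. They were selected on measured values, because Igf2bp2 was lower in old than in young tissue, so that difference is described here and not tested, and neither is the old to young difference of any of the 10 genes. Values are log2 RPKM, that is, reads scaled to transcript length and to the mapped reads of the library, on a log2 scale, so that a difference of 1 is a 2-fold change.

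All 13 mice were i4F-B females, which carry a doxycycline-inducible transgene for the reprogramming factors Oct4, Sox2, Klf4 and c-Myc (OSKM) that can be expressed in all tissues and is inserted in the Pparg gene. The young group held 4 mice of 13 weeks and the old group 5 mice of 55 weeks, none of them given doxycycline. The old-OSKM group held 4 mice, labelled as 58 weeks old, that drank doxycycline with sucrose for 1 week and were killed after 2 weeks without it. Untreated groups carry the transgene too, and an effect of OSKM cannot be told apart from one of doxycycline or sucrose, nor the 58 weeks of the treated mice from the 55 weeks of the untreated ones. RNA was extracted from bulk pancreas, and acinar markers such as Cpa1, a carboxypeptidase of pancreatic juice, were at the top of the range in every mouse (summed acinar markers 12.3 to 12.4 in log2 of summed RPKM, 7 of 8 listed genes present). In bulk tissue, fewer cells of a type and less RNA per cell cannot be told apart.

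IGF1 is made mostly by the liver and locally by many tissues in answer to growth hormone, which acts through its receptor, Ghr. IGF1 and IGF2 signal through the receptor Igf1r, and most of either ligand travels bound to one of the IGF-binding proteins (IGFBPs), which prolong its life and hold it away from the receptor. IGFBPs are secreted, in solid tissues often by fibroblasts, endothelial cells and other stromal cells, and proteases such as PAPPA2 release the ligand from them. IGF2BP2 belongs to a family of proteins that bind mRNAs in the cytoplasm and affect their stability and translation, and its relatives IGF2BP1 and IGF2BP3 are largely fetal.

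The sequences just upstream of the start sites are shown for Igf2bp2 and for the binding protein genes Igfbp4, Igfbp5 and Igfbp6. These 4 members lay higher in every old-OSKM mouse than in every old mouse. Of all genes, 1.73% had groups that did not overlap in either direction. Igf2bp2 was chosen for its low old values, so its separation is described only. The sequences come from RefSeq (build GRCm38.p6, the assembly also called mm10). They cover the 250 bases before an annotated transcript start, written 5′ to 3′ on the strand of the gene. Igf2bp2 is at chr16:22163300-22163549 on the minus strand, Igfbp4 at chr11:99040994-99041243 on the plus strand, Igfbp5 at chr1:72874866-72875115 on the minus strand and Igfbp6 at chr15:102143936-102144185 on the plus strand. The Igfbp4 window belongs to a start inside the annotated span of the gene, which begins at 99040005, and the other windows end where their genes begin. Capitals mark GC boxes (GGGCGG or its complement CCGCCC) in Igf2bp2, the TATA box (TATAAA) in Igfbp4 and CCAAT boxes (CCAAT) in Igfbp6, and nothing is marked in Igfbp5, which held none of the motifs searched.
Igf2bp2: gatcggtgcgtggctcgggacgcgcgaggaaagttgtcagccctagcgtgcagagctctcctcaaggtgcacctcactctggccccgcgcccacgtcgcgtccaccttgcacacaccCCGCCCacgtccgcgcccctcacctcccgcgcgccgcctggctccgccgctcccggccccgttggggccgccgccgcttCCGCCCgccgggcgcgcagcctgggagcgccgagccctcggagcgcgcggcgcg
Igfbp4: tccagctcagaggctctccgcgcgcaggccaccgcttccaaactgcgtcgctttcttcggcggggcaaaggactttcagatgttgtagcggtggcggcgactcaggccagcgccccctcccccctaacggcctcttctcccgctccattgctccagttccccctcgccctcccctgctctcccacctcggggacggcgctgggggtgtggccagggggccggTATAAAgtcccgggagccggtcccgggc
Igfbp5: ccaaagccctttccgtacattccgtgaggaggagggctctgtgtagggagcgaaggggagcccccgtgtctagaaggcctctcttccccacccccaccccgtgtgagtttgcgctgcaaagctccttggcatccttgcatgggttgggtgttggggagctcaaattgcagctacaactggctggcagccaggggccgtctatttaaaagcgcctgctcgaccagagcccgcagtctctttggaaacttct
Igfbp6: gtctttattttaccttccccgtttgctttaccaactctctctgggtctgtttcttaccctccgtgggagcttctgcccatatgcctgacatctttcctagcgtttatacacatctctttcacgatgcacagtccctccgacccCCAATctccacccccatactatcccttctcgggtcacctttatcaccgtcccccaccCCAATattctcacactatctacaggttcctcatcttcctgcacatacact

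The 4 windows differed in composition. The Igf2bp2 window was 77.2% G and C and held 40 CpG dinucleotides, more than 98.7% of the 32851 start windows of the table, whose median was 6. The Igfbp4 window held 22 CpGs, whereas those of Igfbp5 and Igfbp6 held 10 and 7. Motifs were searched on both strands of each window, and none overlapped another within the letters marked. A GC box lay in 32.7% of all windows and occurred 2 times in Igf2bp2. A TATA box (TATAAA or TTTATA) lay in 12.4% of all windows and occurred once in Igfbp4, as TATAAA, and once in Igfbp6, on the other strand and not marked above. A CCAAT box (CCAAT or ATTGG) lay in 33.8% of all windows and occurred 2 times in Igfbp6. The E box CACGTG (6.02% of windows) and the octamer ATGCAAAT (1.6%) were in none of the 4 windows. No motif was thus shared by all 4 genes, and a match describes letters, not a bound site.

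Transcripts of the axis spanned a wide range in pancreas. On the RPKM scale, which corrects for transcript length, Ghr stood highest of the 10 genes with a mean of 3.71 (log2) over the 13 mice and Igf1 followed with 3.41, above 98.7% and 98.3% of all genes measured. Ghr exceeded Igf1 in 13 of 13 mice. The secreted binding proteins Igfbp7 (2.71), Igfbp4 (2.36), Igfbp5 (1.73) and Igfbp3 (1.63) came next, then the receptor Igf1r (1.29) and Igfbp6 (0.95). Igfbp7 exceeded Igfbp4 in 13 of 13 mice, and so did Igfbp4 over Igfbp5, but Igfbp5 exceeded Igfbp3 in only 8 and Igfbp3 exceeded Igf1r in 9, so these neighbours did not differ beyond their spread. Igfbp2 (-2.72) and Igf2bp2 (-2.76) were far below the others, at 0.148 to 0.152 RPKM, above 31.9% and 31.3% of genes, and their order varied from mouse to mouse.

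**Figure D1:**
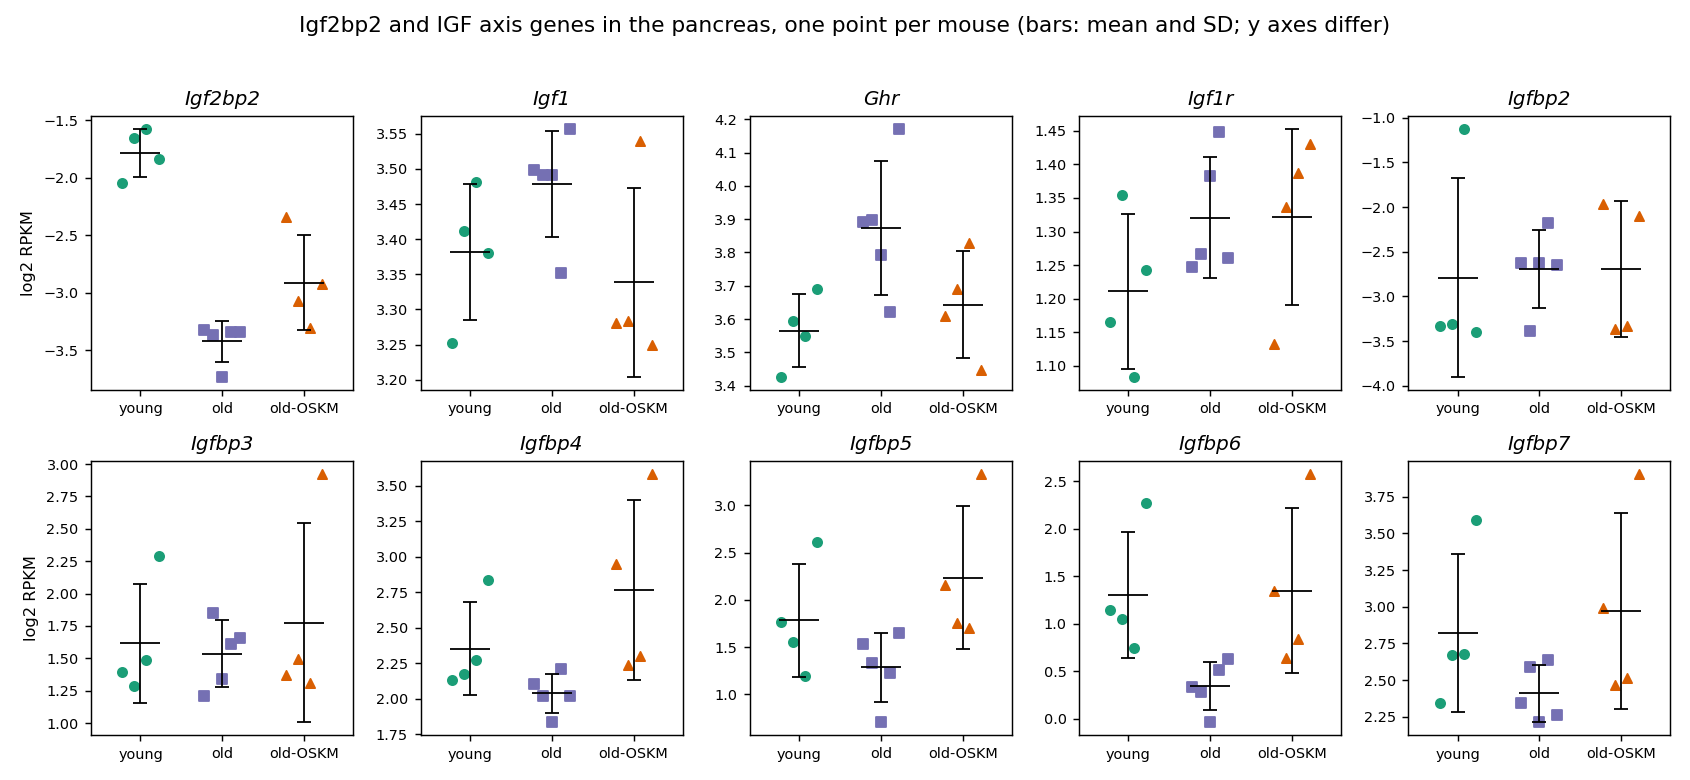
Log2 RPKM (vertical axes, each with its own scale) of Igf2bp2 and the 9 other IGF axis genes in 4 young, 5 old and 4 old-OSKM mice, with 1 point per mouse and bars for the mean and SD. Igf2bp2 was lower in each old mouse than in each young mouse, and Igfbp4, Igfbp5 and Igfbp6 were higher in each old-OSKM mouse than in each old mouse, with old-OSKM mouse 4 at the top.

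Igf2bp2 (Entrez 319765, minus strand of chromosome 16 from 22059009 to 22163299) had the widest gap between young and old tissue of the 10 genes. The 4 young mice had log2 RPKM of -2.05, -1.66, -1.58 and -1.84, the 5 old mice -3.33, -3.37, -3.74, -3.34 and -3.34, and the 4 old-OSKM mice -2.34, -3.07, -3.31 and -2.93. The 3 groups did not overlap at any point, with young mice highest and old mice lowest. The geometric mean was 0.291 RPKM in young mice, 0.0932 RPKM in old mice and 0.133 RPKM in old-OSKM mice. Old minus young was -1.64 (standard error 0.18), the difference on which the gene was chosen. In that contrast 0.886% of all genes passed a fold change of 1.5 with an unadjusted p under 0.01, the thresholds used throughout, and 2.71% had groups that did not overlap.

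Old-OSKM minus old was 0.51 for Igf2bp2 (standard error 0.18) and old-OSKM minus young was -1.13 (standard error 0.19). Because the old and young mice that chose the gene enter both, neither is tested and neither has a p. Choosing a gene for low old values by itself favours a higher mean in old-OSKM mice. On the line from the old mean to the young mean, the old-OSKM mean lay 31.0% of the way, and the 4 mice were far apart on it, at 65.8%, 21.2%, 6.87% and 30.2%. Old-OSKM mouse 1 stood nearest to young tissue, and mouse 3 was almost level with the old mice. Without mouse 1 the difference from old mice was 0.32. Without both old-OSKM mice that were high in adipocyte and macrophage markers (mice 1 and 4) it was 0.23. Mice 1 and 4 were also the highest treated mice for Igf2bp2, so smaller differences had to follow.

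The levels of Igf2bp2 were low, and values recurred between mice. Of the 5 old mice, 4 had values within 0.0437 of each other, and among the 2133 genes whose old mean lay within 0.25 of that of Igf2bp2, 53.1% had their 4 highest old values at least as close together. Recurring values of this kind are thus common at this level, and the size of the fold between old mice and the other groups depends on how low values are treated. With 0.1 RPKM added before taking logs, old minus young was -1.02, and with 1 RPKM added it was -0.24.

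The genes whose levels followed Igf2bp2 most closely over the 13 mice were looked for among the 7975 genes with a symbol that spanned at least 1 on the log2 scale. They were Meiob (Pearson r = 0.88), A730056A06Rik (0.85), Snx24 (0.85), Cdo1 (0.84) and C1qtnf6 (0.84). Such coefficients describe 13 points that fall into 3 groups, and after subtracting each group's mean they were 0.60, 0.03, 0.44, 0.53 and 0.49. Among the 1259 genes with a mean log2 RPKM above 0 the leading gene was Cdo1, a cysteine-degrading dioxygenase. The matrix genes Mmp2 (0.69), Col5a1 (0.69), Col3a1 (0.66) and Col15a1 (0.66) followed. After subtracting each group's mean, the coefficients of these matrix genes were only 0.30, 0.23, 0.33 and 0.18. Cdo1 had 1.63 ± 0.13 in young (SD, n = 4), 0.48 ± 0.29 in old (SD, n = 5) and 1.25 ± 0.46 in old-OSKM mice (SD, n = 4).

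Of the other genes of its family, Igf2bp3 was near -1.6 in all groups and Igf2bp1 was the lowest gene of the lists, between -6.02 and -4.43. Old minus young was 0.16 for Igf2bp3 (95% interval -0.26 to 0.58) and 0.03 for Igf2bp1 (-0.77 to 0.83), and old-OSKM minus old was -0.12 (-0.54 to 0.30) and 0.14 (-0.66 to 0.95). None of these passed the thresholds, and the intervals of both genes leave out a difference of the size seen for Igf2bp2 between old and young mice. Igf2bp1 lay above only 0.0385% of all genes, so little can be read from its intervals. Hmga2, a chromatin protein that activates Igf2bp2 transcription in the embryo, was between -4.56 and -2.86, with no difference past the thresholds in any contrast. Of the list of 11 Igf2bp family members, regulators and bound transcripts other than Igf2bp2, 0 passed the thresholds in any of the 3 contrasts. The smallest p in old-OSKM against old mice was that of Actb, whose mRNA is bound by this family (0.39 higher in log2, limma adjusted p = 0.55).

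The ligand Igf1 and the 2 receptors differed little between groups. Igf1 (Entrez 16000, chromosome 10 from 87858265 to 87937047) had 3.25, 3.41, 3.48 and 3.38 in young mice, 3.50, 3.49, 3.49, 3.35 and 3.56 in old mice, and 3.28, 3.28, 3.54 and 3.25 in old-OSKM mice. Old-OSKM mice 1, 2 and 4 lay under all old mice and mouse 3 among them. The old-OSKM minus old difference was -0.14 (95% interval -0.30 to 0.02, limma adjusted p = 0.57), and old-OSKM minus young was -0.04 (-0.21 to 0.12, adjusted p = 0.81). The antisense gene Igf1os overlaps Igf1 on the other strand without sharing an exon with it, and the library kit does not mark strand.

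Ghr, the growth hormone receptor (Entrez 14600, chromosome 15 from 3317755 to 3583352), had the opposite tilt to Igf2bp2. Young mice had 3.43, 3.59, 3.55 and 3.69, old mice 3.89, 3.90, 3.79, 3.62 and 4.17, and old-OSKM mice 3.61, 3.69, 3.83 and 3.45. The old mean lay 0.31 above the young mean (standard error 0.11) and the groups overlapped through 1 old mouse. Treated mice differed from old mice by -0.23 (95% interval -0.47 to 0.01, limma adjusted p = 0.55), which did not pass the thresholds.

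Igf1r, the receptor that both ligands use (Entrez 16001, chromosome 7 from 67952257 to 68233668), had a narrow range. Its values ran from 1.08 to 1.35 in young, 1.25 to 1.45 in old and 1.13 to 1.43 in old-OSKM mice. Between old-OSKM and old mice the difference was 0.00 (95% interval -0.17 to 0.17, limma adjusted p = 1.00) and old-OSKM minus young was 0.11 (-0.06 to 0.29, adjusted p = 0.71). The intervals of Igf1, Ghr and Igf1r in both treated contrasts leave out a 1.5-fold change in either direction.

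**Figure D2:**
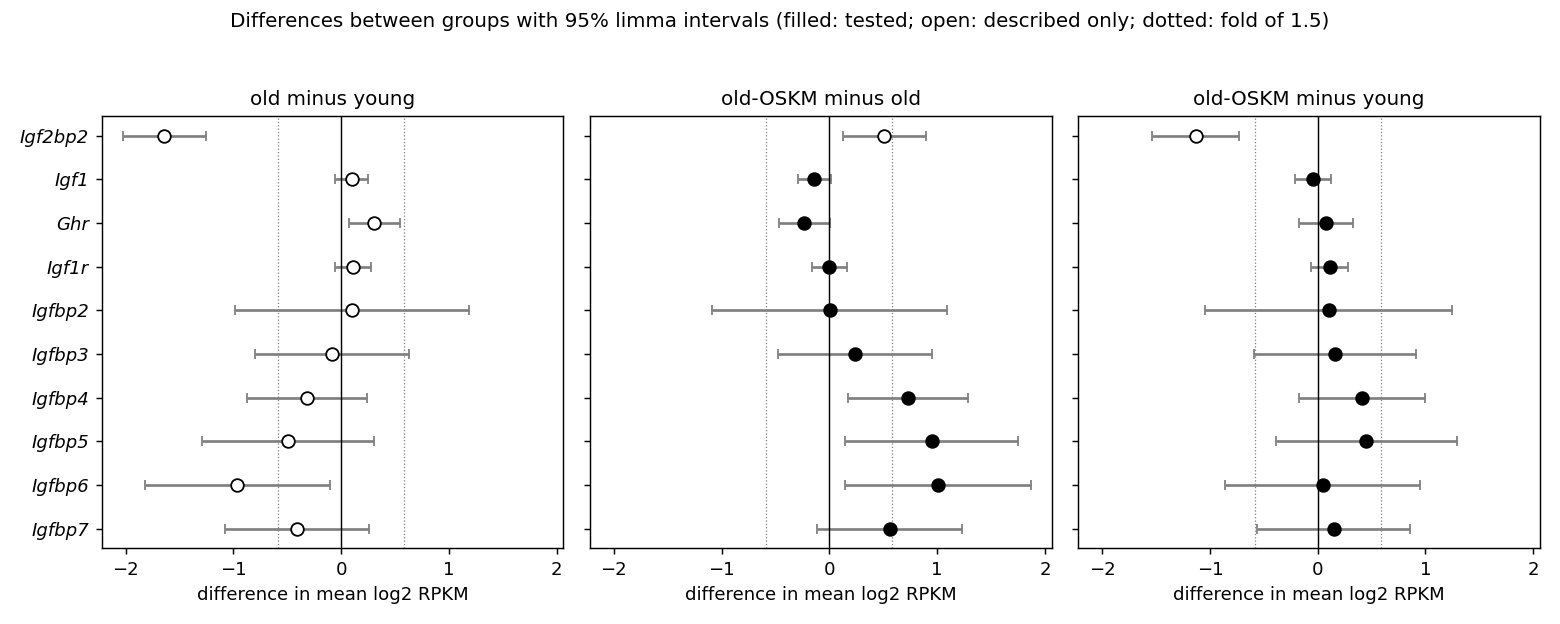
Differences in mean log2 RPKM (horizontal axis) for the 10 genes in the 3 contrasts, with 95% intervals from limma. Filled points were tested, open points and their intervals are described only, and dotted lines mark a fold change of 1.5. In old-OSKM against old mice the intervals of Igfbp4, Igfbp5 and Igfbp6 lay above 0, at adjusted p = 0.55 each.

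Among the 10 genes, the IGF-binding proteins Igfbp4 to Igfbp7 had the widest differences between old-OSKM and old mice. Igfbp4, Igfbp5 and Igfbp6 were higher in all 4 old-OSKM mice than in all 5 old mice, by 0.73, 0.95 and 1.01 on the log2 scale (1.66-fold, 1.93-fold and 2.01-fold), but none passed the thresholds. Over all genes, 1.73% had groups that did not overlap in this contrast, against 3 of the 9 members tested. The thresholds were passed by 0.753% of all genes, against 0 of the 9. The median difference of the 9 was 0.24, where the median of all genes was -0.04. Of the 9, 7 were higher and 2 lower, but Igf1r and Igfbp2 count as higher at 0.00. Over all 23366 genes, 8622 were higher and 14744 lower. In old-OSKM against young mice, 0 of 9 passed the thresholds, against 0.625% of all genes, and 0 of 9 had groups that did not overlap, against 1.9% of all genes.

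Igfbp6, which prefers IGF2 over IGF1 (Entrez 16012, chromosome 15 from 102144186 to 102149512), had the widest differences of the family. Young mice had 1.15, 1.05, 0.74 and 2.27, old mice 0.33, 0.28, -0.04, 0.51 and 0.63, and old-OSKM mice 1.34, 0.63, 0.84 and 2.58. All old mice lay under all young and all old-OSKM mice, although the highest old and the lowest old-OSKM mouse were both near 0.63. Old minus young was -0.96 (standard error 0.39). Old-OSKM minus old was 1.01 (95% interval 0.15 to 1.87, limma adjusted p = 0.55) and old-OSKM minus young was 0.05 (-0.86 to 0.95, adjusted p = 0.96). The mean of old-OSKM mice was thus near that of young mice, with an interval of almost 1 on the log2 scale to either side.

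Igfbp5, an IGFBP that binds extracellular matrix (Entrez 16011, chromosome 1 from 72858065 to 72874865), had 1.77, 1.56, 1.20 and 2.61 in young, 1.53, 1.34, 0.70, 1.22 and 1.65 in old, and 2.16, 1.75, 1.70 and 3.33 in old-OSKM mice. Old and young mice overlapped, and old-OSKM mice 2 and 3 were only just above the highest old mouse. On average they were 0.95 higher (95% interval 0.15 to 1.75, limma adjusted p = 0.55).

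Igfbp4, a substrate of the protease PAPPA (Entrez 16010, chromosome 11 from 99040005 to 99052655), had 2.13, 2.17, 2.27 and 2.84 in young, 2.10, 2.02, 1.83, 2.21 and 2.02 in old, and 2.94, 2.24, 2.3 and 3.58 in old-OSKM mice. Mice 2 and 3 of the treated group were just above the highest old mouse, and mice 1 and 4 well above. The mean difference was 0.73 (95% interval 0.17 to 1.28, limma adjusted p = 0.55). The difference of Igfbp4 passed the thresholds when old-OSKM mouse 2 (0.91) or mouse 3 (0.89) was left out, and its range over all alternatives was 0.23 to 0.91. Mice 2 and 3 were the lowest treated mice for Igfbp4, so a larger difference had to follow.

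Igfbp7 and Igfbp3 had overlapping groups, with old-OSKM mouse 4 highest. Igfbp7, a relative that binds IGFs only weakly and is plentiful in vessel walls (Entrez 29817, chromosome 5 from 77349240 to 77408045), had 2.35, 2.67, 2.68 and 3.59 in young, 2.34, 2.59, 2.21, 2.64 and 2.27 in old, and 2.99, 2.47, 2.51 and 3.91 in old-OSKM mice. Its old-OSKM minus old difference was 0.56 (95% interval -0.11 to 1.23, limma adjusted p = 0.61). Igfbp7 shares 85 exonic bases with Polr2b on the other strand. Igfbp3, the main carrier of IGFs in blood (Entrez 16009, chromosome 11 from 7206086 to 7215498), had 1.39, 1.29, 1.49 and 2.29 in young, 1.21, 1.85, 1.34, 1.61 and 1.66 in old, and 1.37, 1.5, 1.31 and 2.93 in old-OSKM mice. Only mouse 4 of the treated group exceeded the old mice, and the difference of 0.24 (95% interval -0.47 to 0.96, adjusted p = 0.72) became -0.14 without it.

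Markers of stromal cells moved with these genes. Old-OSKM mouse 4 had the highest value of Igfbp3, Igfbp4, Igfbp5, Igfbp6 and Igfbp7 of all 13 mice, and young mouse 4 had the highest of the young mice for each of the 5. The same 2 mice were highest in summed fibroblast and stellate cell markers (8 of 8 listed genes present, none near the bottom of the table): 6.31 and 5.87 in log2 of summed RPKM. The range was 4.87 to 5.87 in young, 4.43 to 4.83 in old and 4.84 to 6.31 in old-OSKM mice. Each old mouse thus lay under each other mouse, although the highest old and the lowest old-OSKM mouse were almost level. Of the 8 markers, 8 had a higher mean in old-OSKM than in old mice, 3 of them with groups that did not overlap, and Col1a1 (0.88, limma adjusted p = 0.55) and Col1a2 (0.89, limma adjusted p = 0.55), which encode type I collagen, passed the thresholds. Summed endothelial markers (8 of 8 present) were 5.15 in old-OSKM mouse 4, 4.79 in young mouse 4 and between 3.87 and 4.23 in the other 11 mice.

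**Figure D3:**
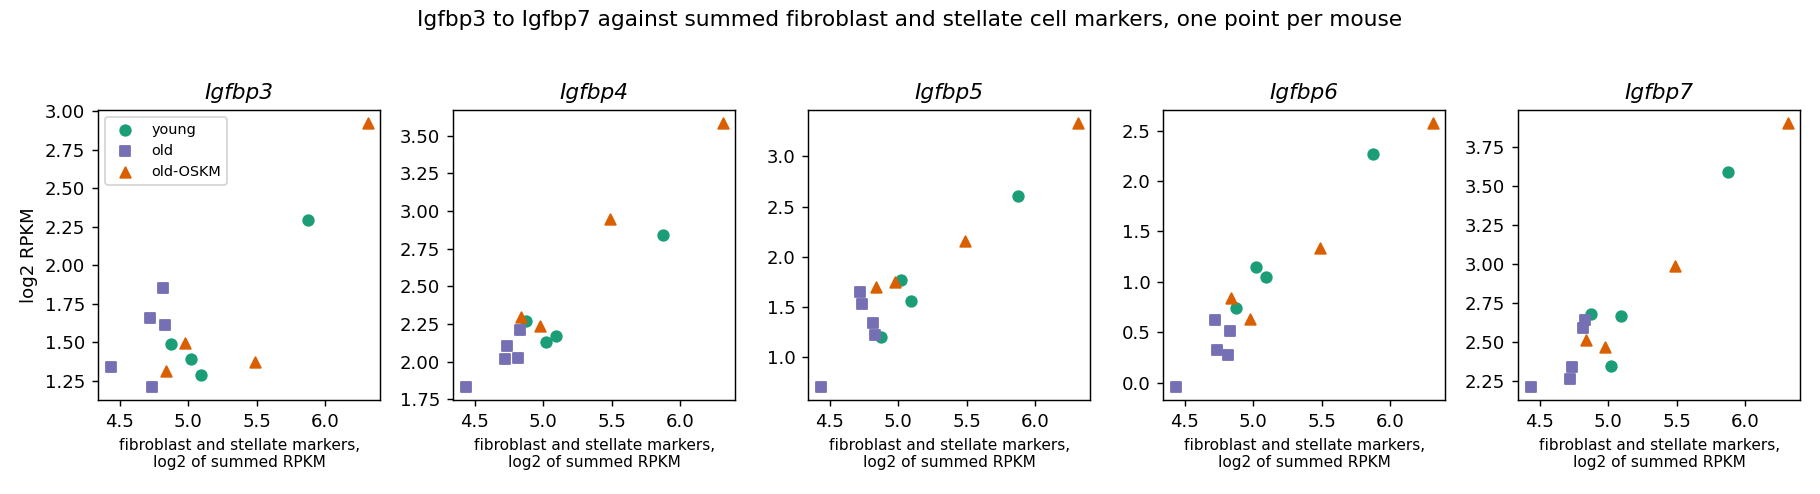
Log2 RPKM of Igfbp3 to Igfbp7 (vertical axes) against the log2 of the summed RPKM of 8 fibroblast and stellate cell markers (horizontal axes), with 1 point per mouse. Old mice lie at 4.43 to 4.83 on the horizontal axis, and old-OSKM mouse 4 is at the upper right of each panel, at 6.31.

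Expressed relative to the summed fibroblast and stellate markers of the same mouse, old-OSKM minus old was 0.03 for Igfbp4, 0.25 for Igfbp5, 0.31 for Igfbp6, -0.14 for Igfbp7 and -0.46 for Igfbp3, against 0.73, 0.95, 1.01, 0.56 and 0.24 before. Relative to the endothelial markers the differences were 0.38, 0.60, 0.66, 0.21 and -0.11. The same ratio for Igf2bp2 gave -1.14 between old and young mice and -0.19 between old-OSKM and old mice with the fibroblast markers, where its own differences were -1.64 and 0.51. With the endothelial markers it gave -1.34 and 0.16, so the sign between old-OSKM and old mice depended on the marker list. Within a contrast, either ratio shifts the difference of every gene by the same amount, the difference in the marker sum itself. From old to old-OSKM mice the mean fibroblast sum went from 4.71 to 5.40 and the endothelial sum from 4.01 to 4.36. The shifts therefore say nothing about the single genes, and the part that stromal cell content has in their levels was not tested.

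The mouse highest in fibroblast markers was left out from the young and from the old-OSKM group. Old-OSKM minus old was then 0.46 for Igfbp4, 0.58 for Igfbp5 and 0.60 for Igfbp6, each more than 1.5 times smaller than with all mice. The young mouse does not enter these differences. Old-OSKM mouse 4 was also the highest treated mouse for each gene, so smaller differences had to follow. Adipocyte and macrophage markers were highest in old-OSKM mice 1 and 4, at 4.63 and 4.40 for the adipocyte list (8 of 8 present, 3.04 to 3.96 in the other mice) and at 5.35 and 5.10 for the macrophage list (7 of 7 present, 3.34 to 4.48 in the others). Without these 2 mice the differences were 0.23 for Igfbp4, 0.44 for Igfbp5, 0.40 for Igfbp6 and 0.08 for Igfbp7. None of these passed the thresholds, and the treated group then held 2 mice. Mice 1 and 4 were also the highest treated mice for each of these genes, so smaller differences had to follow here too.

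Igfbp2, a binding protein made in quantity by liver (Entrez 16008, chromosome 1 from 72824480 to 72852474), was near the bottom of the range. Young mice had -3.33, -3.31, -1.12 and -3.40, old mice -2.62, -3.39, -2.62, -2.17 and -2.64, and old-OSKM mice -1.97, -3.36, -3.33 and -2.10. Young mouse 3 stood apart from the other young mice. The same mouse held liver transcripts, with albumin (Alb) at 5.36 against -1.19 to 1.24 in the other 12 mice, and summed hepatocyte markers (7 of 7 present) at 6.13 against 1.70 to 3.05. It also had Igfbp1, another product of liver, at -1.05, whereas the other 12 mice had -3.67 to -3.45. Old-OSKM minus old for Igfbp2 was 0.00 (95% interval -1.09 to 1.09, adjusted p = 1.00), an interval that spans more than a 2-fold change in either direction.

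The other genes of the axis were described from 8 lists, holding 50 genes besides the 10 members. In old against young mice, 1 of the 50 rose past the thresholds and 2 fell, where 0.886% of all genes passed in either direction. In old-OSKM against old mice 0 of 50 passed by limma, with 3 of them (6%) at an unadjusted p under 0.05 against 8.07% of all genes, and in old-OSKM against young mice 1 fell. In the fit of the deposited values of all 13 mice, none of the 50 had an adjusted p under 0.05 in these contrasts, where 19, 1 and 10 of all genes did. The median difference of the 50 genes was 0.01, -0.03 and -0.03 in the 3 contrasts, against 0.00, -0.04 and -0.04 over all genes.

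Among imprinted growth genes, H19 and Cdkn1c fell in old tissue. H19, a maternally expressed RNA next to Igf2, had -1.46, -1.27, -1.71 and -1.04 in young mice, -3.75, -3.79, -3.22, -3.77 and -3.24 in old mice, and -3.35, -4.74, -3.74 and -2.31 in old-OSKM mice. Every young mouse was above every other mouse, and the treated mice surrounded the old ones. Old minus young was -2.18 (standard error 0.38, limma adjusted p = 0.080) and old-OSKM minus young -2.17 (limma adjusted p = 0.21), while old-OSKM minus old was 0.02 (95% interval -0.82 to 0.85, adjusted p = 0.99). With 0.1 RPKM added before taking logs, the H19 differences of old and old-OSKM from young mice still passed the thresholds. They were -1.39 (limma adjusted p = 0.026) and -1.33 (limma adjusted p = 0.072). With 1 RPKM added both were under the fold threshold, at -0.36 (limma adjusted p = 0.025) and -0.34 (limma adjusted p = 0.058). Its neighbour Igf2 had -0.79 to -0.43 in young, -1.01 to -0.37 in old and -1.05 to -0.15 in old-OSKM mice, with an old minus young difference of -0.06 (95% interval -0.46 to 0.34).

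Cdkn1c, an inhibitor of the cell cycle, had 0.60, 0.17, -0.08 and 0.58 in young mice and -0.30, -0.29, -0.52, -0.15 and -0.58 in old mice, a difference of -0.69 (limma adjusted p = 0.55). The groups did not overlap, but the difference no longer passed without young mouse 1 (-0.60) or 4 (-0.60) or without old mouse 1 (-0.71), 2 (-0.71), 3 (-0.65) or 5 (-0.64), nor in the first run of sample id numbers, which is described at the end (-0.71). Old-OSKM mice 1, 2 and 3 were between -0.30 and -0.25 and mouse 4 was at 0.62. Of the 10 genes of the imprinted list that were not members, 4 had an unadjusted p under 0.05 in old against young mice, where 5.52% of all genes did, the other two being Mest (-0.42) and Dlk1 (-0.51), neither past the thresholds.

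Of the IGFBP proteases and their inhibitors, Pappa2, which cleaves IGFBP3 and IGFBP5, rose in old tissue. It had -1.38, -1.69, -1.85 and -1.65 in young, -0.99, -0.36, -0.23, -1.02 and -0.77 in old and -2.23, -1.33, -1.23 and -0.51 in old-OSKM mice. Each old mouse was above each young mouse, by 0.97 on average (limma adjusted p = 0.55), and the treated mice ranged from under the young to among the old. It no longer passed without young mouse 2 (0.95), 3 (0.90) or 4 (0.96) or without old mouse 2 (0.89), 3 (0.86) or 5 (0.99), nor with the run of sample id numbers as a covariate (0.92) or in the first run alone (0.88). From old to old-OSKM mice the difference was -0.65 (limma adjusted p = 0.55), and without old-OSKM mouse 4 it passed the thresholds at -0.92. Mouse 4 was the highest treated mouse for Pappa2, so a lower difference had to follow. Htra1, a secreted serine protease, was higher in each old-OSKM mouse than in each old mouse by 0.51 on average (limma adjusted p = 0.55), under the fold threshold.

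**Figure D4:**
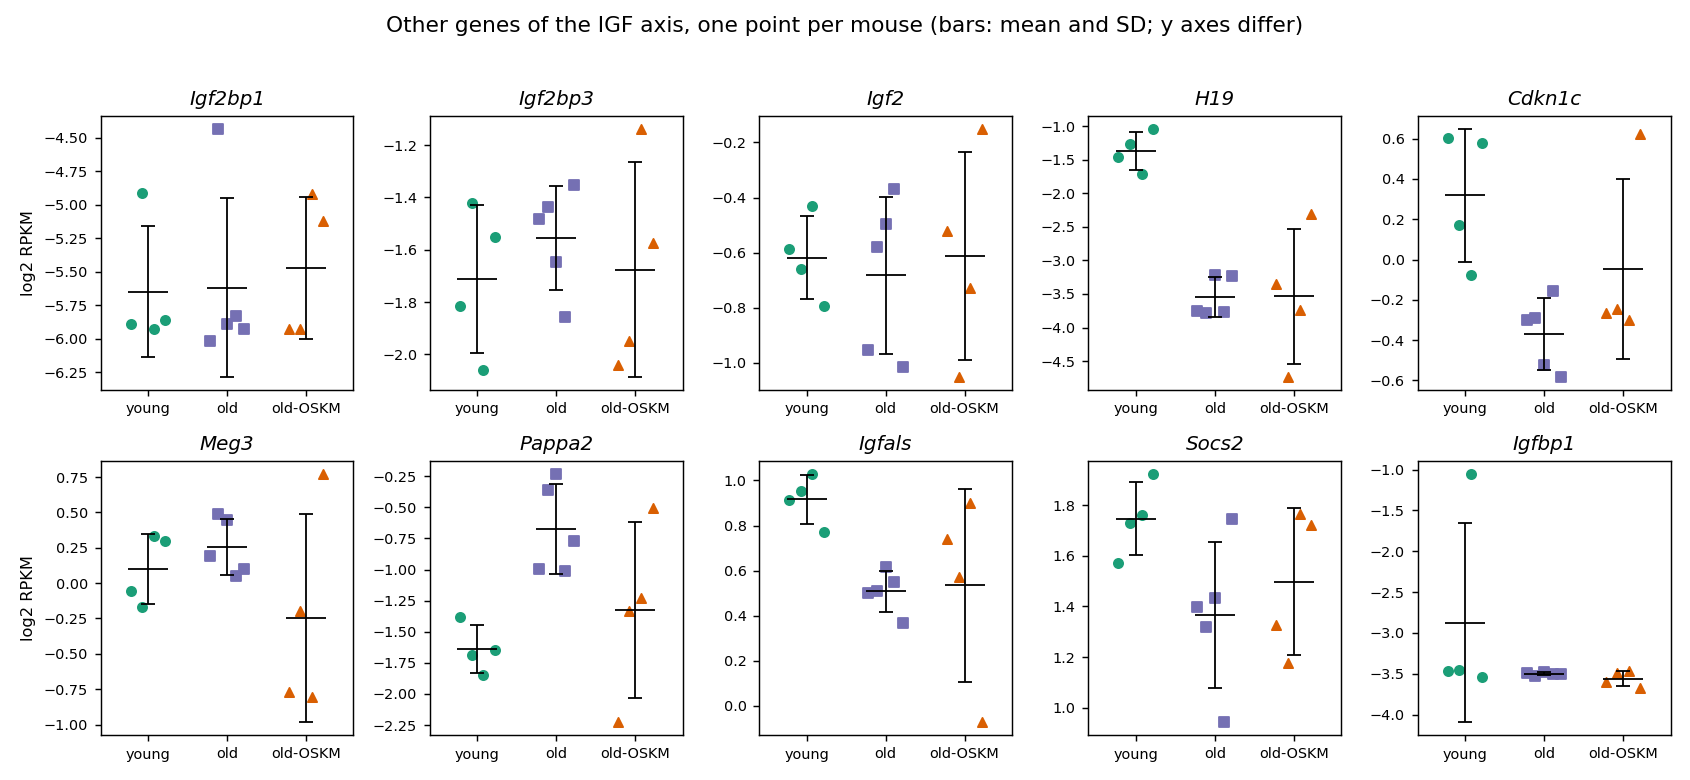
Log2 RPKM (vertical axes, each with its own scale) of 10 further genes of the IGF axis in the 3 groups, with 1 point per mouse and bars for the mean and SD. H19 and Cdkn1c were lower and Pappa2 higher in each old mouse than in each young mouse, and Igfbp1 stood out in young mouse 3 at -1.05.

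The remaining lists held no gene past the thresholds. Igfals, the acid-labile subunit that joins IGFBP3 or IGFBP5 and IGF in a circulating complex, was 0.77 to 1.03 in young and 0.37 to 0.62 in old mice, which did not overlap (-0.41, limma adjusted p = 0.78). Socs2, a growth hormone target that damps signalling from its receptor, had an old minus young difference of -0.38 (limma adjusted p = 0.84). Of 4 other receptors of the family 0 passed in any contrast, the smallest p in old-OSKM against old mice being that of Igf2r, which takes up IGF2 for degradation (-0.17, limma adjusted p = 0.61). Among the receptor adaptors and the growth hormone signalling genes, 7 in each list, 0 passed in any contrast. By the smallest p in their list and contrast, the other genes to name are Insr, the insulin receptor (old minus young 0.12), Stat5a (old-OSKM minus old -0.12) and Socs1 (old-OSKM minus young 0.72) of growth hormone signalling, the adaptors Grb14 (old minus young -0.31) and Irs4 (old-OSKM minus old 0.14), Lin28a (old minus young 0.28), Gh (old-OSKM minus young -0.03) and Igfbpl1 (old-OSKM minus old 0.78), none past the thresholds. The insulin genes Ins1 and Ins2 varied widely within each group, Ins2 from 5.50 to 8.05 in old-OSKM mice, and did not pass either (old-OSKM minus old -0.61 for Ins2, limma adjusted p = 0.61).

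The numbers in the sample id field of the labels fall into 2 runs with a gap between them, the second holding young mice 3 and 4 and old mouse 5, and whether a run was a processing batch is not given. In the mice of the first run alone, which include all old-OSKM mice, Igf2bp2 differed by -1.59 between old and young mice, by 0.53 between old-OSKM and old mice and by -1.06 between old-OSKM and young mice. Old-OSKM minus old was 1.04 for Igfbp5 and 1.08 for Igfbp6 in that run.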

How the data were processed

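Total RNA from pancreas was depleted of ribosomal RNA, made into libraries with a kit that does not mark strand, and sequenced as 50 nt read pairs. According to the study's methods and the submitters' processing notes, the authors aligned reads to mm10 with STAR 2.3.0e, excluded reads at 5 or more locations, estimated RPKM per isoform with Casper, summed it per Entrez gene and deposited log2 RPKM after quantile normalization. The sorted values of any pair of mice differed by at most 0.0116, so the correction for total reads that the methods also name is not visible in them. Counts are not given, so depth per sample is unknown and no counting interval can be stated. limma 3.58.1 (R 4.3.3) was fitted to all 23366 genes and 13 mice with group as the only term, and p-values were adjusted by Benjamini-Hochberg over all genes. Genes past the thresholds had both a fold change above 1.5 and an unadjusted p below 0.01. The fit was tested on simulated data. Symbols, coordinates and start windows came from RefSeq (GRCm38.p6), overlapping genes from GENCODE, and 23273 genes had a symbol. Figures used matplotlib 3.10.9.

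The members and lists were chosen with earlier results of these data known. Named besides the 10 members were list genes called in any contrast, the gene with the smallest p in each list and contrast, and Igf2, H19, Igf2bp1, Igf2bp3 and Hmga2. The marker genes Amy2a2, Ighm and Trac were not found in the table used here. Alternatives were another scaling, added RPKM, a filter on low values, 2-group fits, other limma settings, the run of sample id numbers and leaving out mice.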

Additional observations from a re-analysis of the deposited data

Results flagged for a closer look

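In 99 sets of values, each 1 of 33 named genes in 1 of the 3 groups, the highest or lowest mouse was compared with the gap expected in a small sample. Of these sets, 10 held a mouse that stood apart, where chance alone gives about 1 in 20 if values are normally distributed. Of the 30 sets of the 10 members, 4 did. The low genes Igf2bp2, Igfbp2, Hmga2, Igf2bp1 and Irs4 had nearly equal values in several mice, so that rate need not hold for them. Igf2bp2 in old mouse 3 was -3.74, under the nearest old value of -3.37. Igf1 in old-OSKM mouse 3 was 3.54, above 3.28. Igfbp2 in young mouse 3 was -1.12, above -3.31, in the mouse that held liver transcripts. Igfbp3 in old-OSKM mouse 4 was 2.93, above 1.5, in the mouse highest in fibroblast and endothelial markers.

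Among the other genes, Cdkn1c in old-OSKM mouse 4 was 0.62, above -0.25, and Irs4 in the same mouse was -4.36, above -4.91. Htra1 in young mouse 4 was 1.25, above 0.68. Hmga2 in old-OSKM mouse 1 was -3.0, above -3.80. Igf2bp1 was -4.91 in young mouse 2, above -5.86, and -4.43 in old mouse 2, above -5.83.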

How the results depend on the processing

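The difference of Igf2bp2 kept its sign in each alternative that gave a value, from -1.73 to -0.24 (old minus young), 0.06 to 0.64 (old-OSKM minus old) and -1.41 to -0.19 (old-OSKM minus young). A filter on a mean log2 RPKM above -2 removed the members Igf2bp2 and Igfbp2, and among the other axis genes H19. In old-OSKM against old mice, Igfbp4 (0.23 to 0.91), Igfbp5 (0.44 to 1.13), Igfbp6 (0.40 to 1.25), Igfbp7 (0.08 to 0.73), Igf1 (-0.21 to -0.07) and Ghr (-0.29 to -0.12) kept their signs. The causes of the changes below were not tested, beyond the fewer genes that the filter tests and the fewer mice where mice were left out.

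The number of genes called, which was 207 in old against young, 176 in old-OSKM against old and 146 in old-OSKM against young mice, became 116, 77 and 76 with 0.1 RPKM added, 16, 2 and 8 with 1 RPKM added, and 136, 104 and 81 with the filter. With 1 RPKM added, old minus young and old-OSKM minus young held 0 and 0 other axis genes past the thresholds, and Igfbp2 turned to -0.0124 in old-OSKM minus young. With the filter, which removed H19 before testing, old-OSKM minus young held 0 other axis genes past the thresholds. With the run of sample id numbers as a covariate or its first run alone, Igf1r turned to -0.0165 or -0.0141 in old-OSKM minus old and Igf1 to 0.00636 or 0.00641 in old-OSKM minus young, 2 and 2 other axis genes passed in old-OSKM minus young, and 1 passed in old minus young in the first run.

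Without the 2 mice highest in fibroblast markers (chosen after seeing the data), 2 other axis genes passed in old-OSKM minus old and 2 in old-OSKM minus young. Old-OSKM minus old then turned to -0.0350 for Igf1r, -0.20 for Igfbp2 and -0.14 for Igfbp3, and old-OSKM minus young to -0.30 for Igfbp2 and -0.0423 for Igfbp6. Without old-OSKM mice 1 and 4 (also chosen after seeing the data), 80 genes and 1 other axis gene passed in old-OSKM minus old. Old-OSKM minus old was then -0.66 for Igfbp2 and -0.13 for Igfbp3, and old-OSKM minus young 0.0298 for Igf1, -0.56 for Igfbp2, -0.21 for Igfbp3, -0.0851 for Igfbp4, -0.058 for Igfbp5, -0.57 for Igfbp6 and -0.33 for Igfbp7.

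Leaving out 1 mouse at a time gave 94 (without old-OSKM mouse 1) to 338 (without mouse 2) genes called in old-OSKM minus old and 121 to 253 (without mouse 2) in old-OSKM minus young. Of the 9 tested members, 0 to 1 passed in old-OSKM minus old (Igfbp4, without old-OSKM mouse 2 or 3, its lowest treated mice). Other axis genes past the thresholds numbered 1 to 3, 0 to 4 and 1 to 4 in the 3 contrasts. Igfbp4 in old-OSKM minus old ranged from 0.46 to 0.91. Old-OSKM minus old ranged from -0.0350 to 0.0639 for Igf1r, -0.24 to 0.23 for Igfbp2 and -0.14 to 0.40 for Igfbp3. Old-OSKM minus young ranged from -0.14 to 0.66 for Igfbp2, -0.22 to 0.39 for Igfbp3, -0.36 to 0.37 for Igfbp6 and -0.16 to 0.40 for Igfbp7.

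No paired analysis was possible because the replicate numbers only name mice in order. With no counts the depth behind low genes is unknown, which limits the low genes, Igf2bp2, Igfbp2 and H19 among them. Igf2bp2 in all contrasts, and the other members in old minus young, were not tested and so not counted as passing in any setting.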

Other observations

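Further cell type lists were also summed in each mouse. Summed duct markers (7 of 7 present) were 5.14 to 5.57 in young, 5.10 to 5.22 in old and 5.15 to 5.63 in old-OSKM mice (log2 of summed RPKM). Markers of beta cells (8 of 8 present) ranged from 6.08 to 8.75 in old-OSKM mice, a wider span than the 7.04 to 8.09 of young and the 7.22 to 8.44 of old mice, and the 7 markers of other islet cells ranged from 4.0 to 6.18 in old-OSKM mice. Old-OSKM mouse 4 was highest and old-OSKM mouse 1 lowest in both islet lists. Smooth muscle and pericyte markers (6 of 6 present) were 3.86 in old-OSKM mouse 4 and 3.42 in young mouse 4, and 2.45 to 3.03 in the other mice, so that the same 2 mice were highest as for the fibroblast list, and the part of these cells in the levels of the IGF-binding proteins was not tested. Mesothelial markers (5 of 5 present) were 2.22 to 3.05 over the 13 mice. Of the B and plasma cell list 5 of 6 genes were present, and the sum was -0.42 to 1.29 in young, 1.13 to 2.93 in old and 1.69 to 3.56 in old-OSKM mice. T cell markers (5 of 6 present) were highest in old-OSKM mouse 1 at 2.25, as were the 6 proliferation markers at 2.13.

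Meg3, a maternally expressed RNA of the Dlk1 locus chosen after its values were seen, separated old-OSKM mouse 4 from the other treated mice, which had -0.77, -0.19 and -0.81 where mouse 4 had 0.77 and old mice had 0.05 to 0.49. Its old-OSKM minus old difference was -0.50 with all mice and -0.84 without mouse 4, where it passed the thresholds, and in that setting Ins1, Pappa2 and Peg3 also passed the thresholds. Mouse 4 was the highest treated mouse for each of these genes, so lower differences had to follow. Over all genes, 94 to 338 passed in this contrast when 1 mouse was left out.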
